A study of Mus musculus with 6 samples.

Results

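The genes described here are inhibitory receptors of B cells and the phosphatases that such receptors recruit, in germinal centre B cells with a conditional deletion of Lsd1. The 8 members were listed by name, with no threshold on a measured value, although earlier results of these data were known, and all 8 were found among the 15861 genes of the count table. They are 6 receptor genes (Cd22, Cd72, Fcgr2b, Siglecg, Fcrl1 and Pirb) and 2 phosphatase genes (Ptpn6 and Inpp5d). Polyadenylated RNA was sequenced from mouse B cells sorted as B220+ GL7+ FAS+, with 1 library per mouse. The KO group held 3 C57BL/6 mice with floxed Lsd1 alleles (Lsd1 f/f) and a Cgamma-cre+/- allele, and the WT group held 3 C57BL/6 littermates that were Lsd1 f/f without Cre. Both groups thus carried floxed Lsd1 alleles, and only KO mice carried Cre, so effects of Cre and of the deletion cannot be told apart. Lsd1 is the older name of Kdm1a, a histone demethylase gene, and the Cre is named in the labels for an immunoglobulin gamma constant region, which B cells transcribe when they are activated to switch isotype. The series design describes the comparison as one between wild-type and knockout germinal centre populations.

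Inhibitory receptors set the threshold at which the B cell antigen receptor signals. When a receptor with an immunoreceptor tyrosine-based inhibitory motif is brought near the antigen receptor, the kinase Lyn phosphorylates the tyrosine of that motif, and the motif then binds SHP-1, the tyrosine phosphatase encoded by Ptpn6, or SHIP-1, the inositol phosphatase encoded by Inpp5d. SHP-1 removes phosphate from signalling proteins, and SHIP-1 removes phosphate from the membrane lipid made by phosphoinositide 3-kinase. Germinal centre B cells are known for dampened antigen receptor signalling, with a high level of phosphatase activity.

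The inhibitory motif is what joins most of the receptor genes. It was searched for as isoleucine, valine, leucine or serine, any residue, tyrosine, any 2 residues, and then leucine, valine or isoleucine, in the part of each GENCODE vM21 coding sequence on the cytoplasmic side of its membrane segment. The search found 4 matches in Cd22, 2 in Cd72, 1 in Fcgr2b, 3 in Siglecg, 3 in Pirb and 0 in Fcrl1. For each receptor with a match, the coding sequence of the first match that ends in a leucine codon is printed below, with its mm10 position and the tyrosine codon in capitals, and the other match of Cd72 is added because Cd72 is the receptor gene that differed most between the groups.
Cd22 (chr7:30867494-30867511, minus strand): gttagtTATgccatcttg
Cd72, first match (chr4:43454498-43454515, minus strand): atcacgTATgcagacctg
Cd72, other match (chr4:43454306-43454323, minus strand): ctcaccTACgagaatgtg
Fcgr2b (chr1:170961071-170961088, minus strand): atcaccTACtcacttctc
Siglecg (chr7:43417979-43417996, plus strand): ctccacTATgctgctctc
Pirb (chr7:3712786-3712803, minus strand): gtgaccTATgcccagctg
Each of these sequences lies within 1 coding exon. The Cd72 matches start at codons 5 and 37, before the membrane segment, since CD72 is a protein whose amino end lies in the cytoplasm. Those of the other receptors lie after it, such as the Fcgr2b match at codons 317 to 322 of 340. FCRL1 has 7 tyrosines in the cytoplasmic stretch and no match, and it is known as a receptor that enhances B cell activation, unlike the other 5 receptors.

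Depth was 12.3 to 14.3 M counts in the KO libraries and 3.39 to 5.52 M in the WT libraries, so depth and genotype cannot be told apart. Kdm1a, the targeted gene, was read at 81.9, 33.0 and 21.8 CPM in the KO libraries, against 134, 85.2 and 92.6 CPM in the WT libraries (CPM on TMM-scaled library sizes, the scale used below unless another is named). The library labelled KO 1 was thus close to the lowest WT library, and scaled by library total alone it held 87.5 CPM, within the WT range of 78.9 to 135 CPM. Its target gene does not clearly bear out the label, and values without it are given where they matter. The germinal centre marker S1pr2 was read at 382 to 644 CPM of the library total over all 6 libraries, while Mef2b, another marker on that list, had at most 6 counts in any library. Rgs13, also on it, varied widely, at 121, 268 and 221 CPM in KO, against 83.2, 616 and 378 CPM in WT, and of the 11 markers of that list that were tested 8 had a log2 fold change below 0 and 0 passed (edgeR). On the same scale, a list of 20 macrophage and dendritic cell markers had sums of 283, 202 and 3167 CPM in KO, against 304, 1351 and 2539 CPM in WT. T cell markers had sums of 6.98 to 20.9 CPM in KO and 7.92 to 12.7 CPM in WT, with Cd3d and Cd3g at no more than 15 counts. Neutrophil markers came to at most 8.76 CPM in KO and 3.44 CPM in WT. Plasma cell markers had sums of 2943 to 3632 CPM in KO and 2522 to 3590 CPM in WT, with overlap. Of the 9 of them that were tested, 6 had a log2 fold change above 0 and 0 passed (edgeR). Among them Irf4 was read at 111, 48.8 and 91.1 CPM in KO, against 47.0, 28.2 and 32.4 CPM in WT. In bulk RNA, fewer cells of a type and less RNA per cell cannot be told apart.

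None of the 8 genes passed the test in KO against WT. Over the 10926 genes tested with edgeR, the share called at an adjusted p under 0.05 was 0.0732% higher in KO and 0.00915% lower in KO, so few genes of any kind were called. At an unadjusted p under 0.05, 1 of the 8 was called (Cd72, higher in KO), where over all genes tested 7.10% were called higher and 5.50% lower in KO. By DESeq2 and by limma-voom 0 of the 8 passed, where DESeq2 called 0.807% of all genes higher and 0.312% lower and limma-voom called 0.0183% higher and 0 genes lower. Groups that did not overlap were seen for 2 of the 8, namely Cd72 with every KO library above every WT library and Ptpn6 with every KO library below. Over all genes tested, 10.0% did not overlap with KO higher and 7.95% did not overlap with KO lower. The count depends on the scaling, since with library size alone Fcgr2b was also higher in every KO library, where 13.7% of all genes did not overlap with KO higher and 4.29% with KO lower. The median log2 fold change of the 8 was -0.03, beside 0.01 over all genes tested. Above 0 lay 4 of the 8, beside 51.34% of all genes tested.

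**Figure D1:**
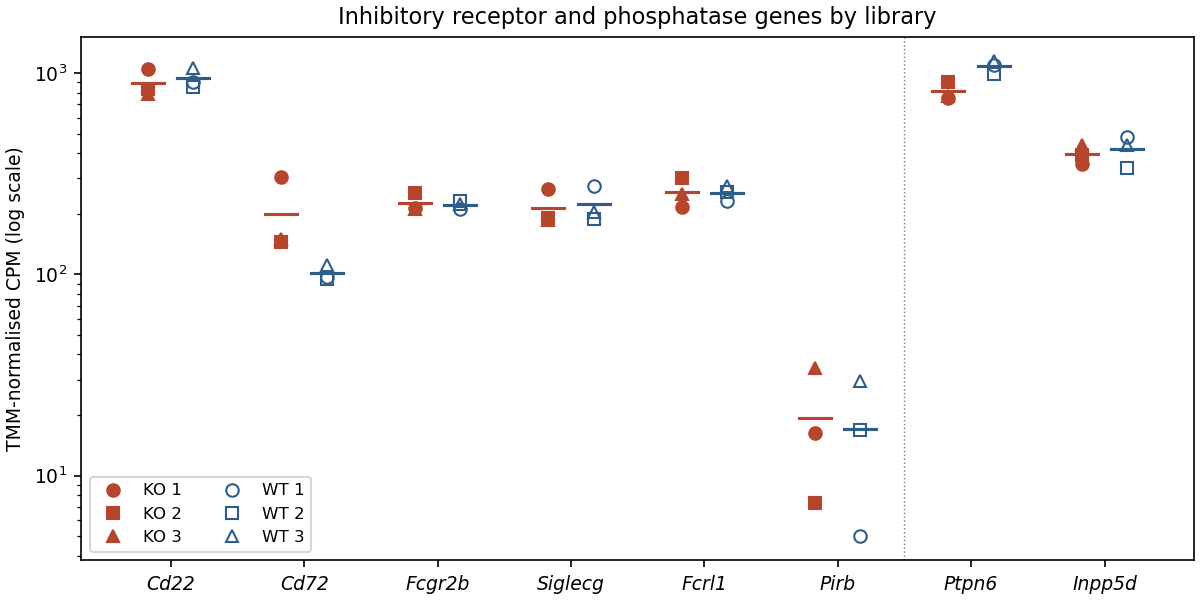
Level of each gene in each library, in TMM-normalised CPM on a log axis, with KO libraries as filled red symbols to the left of WT libraries as open blue symbols and horizontal lines at group means (n = 3 each). Cd72 is the receptor gene whose groups lie apart, with the library labelled KO 1 at 305 CPM above the rest, and the Ptpn6 groups lie apart the other way.

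Levels of different genes were compared per length, as counts per kilobase of exon scaled per M within each library (TPM). The length was the union of all annotated exons of a gene, such as 2802 bp for Ptpn6 and 5790 bp for Fcgr2b. The lengths of the transcripts present were not measured, so the order of genes depends on the annotation. Ptpn6 stood highest, at 995 ± 16.4 TPM in KO and 1144 ± 125 TPM in WT (SD, n = 3 each). Cd22 came next, at 613 ± 127 TPM in KO and 551 ± 56.2 TPM in WT, and in no library did it reach the Ptpn6 level. Fcrl1 followed with 247 ± 22.7 TPM in KO and 211 ± 5.56 TPM in WT. On this per-length scale every KO library was above every WT library for Fcrl1 and for Fcgr2b too. Ptpn6 was lower in every KO library by a narrow gap, with at most 1011 TPM in KO and at least 1013 TPM in WT. The share of all genes without overlap was not computed on this scale. In KO the Fcrl1 range of 221 to 261 TPM lay inside that of Cd72. Below it the order was not the same in the groups. In KO, Cd72 (130 to 324 TPM), Inpp5d (159 to 212 TPM) and Siglecg (122 to 199.8 TPM) overlapped as neighbours, and Siglecg also overlapped Fcgr2b at 133 to 135 TPM. In WT, Inpp5d (127 to 204 TPM), Siglecg (112 to 184 TPM) and Fcgr2b (109 to 117 TPM) overlapped each with the next, whereas Cd72 lay below all of them at 79.6 to 91.9 TPM. Pirb was lowest in every library, at 5.02 to 28.1 TPM in KO and 3.59 to 18.6 TPM in WT. The messenger RNA of SHP-1 was therefore the most abundant of the set per length, with SHIP-1 at 180 ± 28.1 TPM in KO and 165 ± 38.3 TPM in WT.

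Cd72 encodes a C-type lectin-like receptor that binds the semaphorin CD100 and recruits SHP-1. It was read at 305, 145 and 150.4 CPM in KO, against 97.2, 95.2 and 112 CPM in WT. The lowest KO library was 1.29 times the highest WT library, and the library labelled KO 1 was 2.03 times the next highest library. Means were 200.05 ± 91.1 CPM in KO and 101 ± 9.13 CPM in WT (SD, n = 3 each). The log2 fold change was 0.98 (SE 0.29), a ratio of 1.97 with a 95% interval of 1.27 to 3.07, and it did not pass over all genes (by edgeR, adjusted p = 0.26, unadjusted p = 0.00613). Without the library labelled KO 1 the log2 fold change was 0.53 (SE 0.25, adjusted p = 0.645 by edgeR), and without KO 2 it was 1.17. In no alternative did it pass, and its adjusted p ran from 0.0822 to 0.913 over 15 alternatives, 0.0822 being that of DESeq2. Cd72 lies on chromosome 4 (43446462 to 43454628, minus strand, mm10), and 41.6% of its exon bases overlap exons of Tesk1 on the other strand. Since the strand setting of the counting is not given in the sources used here, reads of the overlap are uncertain, and Tesk1 itself was read at 50.6, 30.6 and 33.8 CPM in KO, against 53.6, 32.4 and 48.0 CPM in WT. The 10 follicular naive B cell markers, genes of resting B cells outside the germinal centre, had sums of 944 to 1122 CPM (of library totals) in KO and 683 to 806 CPM in WT, and 10 of the 10 had a log2 fold change above 0, with a median of 1.07, close to that of Cd72, although 0 of them passed (edgeR). Over all genes tested, 51.34% had a log2 fold change above 0. The part of follicular naive B cells in the Cd72 difference was not tested.

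CD22 and Siglec-G (the product of Siglecg) are lectins that bind sialic acid on glycans of the B cell's own surface or of neighbouring cells. Cd22 was read at 1049.6, 837 and 786 CPM in KO, against 908, 857 and 1055 CPM in WT. The library labelled KO 1 and WT 3 were both near 1050, while KO 2 and KO 3 lay below every WT library. On this scale the overlap thus rests on the library labelled KO 1. Per length KO 2 and KO 3, at 512 and 571 TPM, lay above WT 2 at 486 TPM, so there the groups overlapped without it. The log2 fold change of Cd22 was -0.08 (SE 0.21, adjusted p = 0.921 by edgeR), and its 95% interval ran from a ratio of 0.693 to one of 1.30. Siglecg was read at 264, 189.6 and 187 CPM in KO, against 275, 188 and 204 CPM in WT. In each group 1 library stood above the other two, the library labelled KO 1 and WT 1. The log2 fold change of Siglecg was -0.06 (SE 0.23, adjusted p = 0.948 by edgeR), with an interval from 0.679 to 1.36. Both genes lie on chromosome 7, Cd22 at 30865402 to 30880342 on the minus strand and Siglecg at 43408204 to 43418358 on the plus strand, and Cd22 shares 479 exon bases with an antisense gene.

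Fcgr2b encodes the inhibitory receptor for the Fc part of IgG, which recruits SHIP-1 when immune complexes bind the antigen receptor and FcγRIIB together. It was read at 213, 254 and 212 CPM in KO, against 211, 231 and 224 CPM in WT. These values overlapped, and the 6 libraries spanned a 1.20-fold range, the narrowest of the 8 genes. The fitted log2 fold change was 0.03 (SE 0.19, adjusted p = 0.974 by edgeR), with a 95% interval from a ratio of 0.764 to one of 1.36. Fcgr2b lies on chromosome 1 (170958617 to 170976547, minus strand). Fcrl1, the gene without a motif match, was read at 216, 302 and 251 CPM in KO, against 231, 258 and 276 CPM in WT. Its log2 fold change was 0.01 (SE 0.20, adjusted p = 0.994 by edgeR), with an interval from 0.741 to 1.37. It lies on chromosome 3 (87376387 to 87402934, plus strand). Ratios of 2 lie outside the intervals of Cd22, Siglecg, Fcgr2b and Fcrl1.

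Pirb encodes paired immunoglobulin-like receptor B, which binds MHC class I and is found on B cells and on myeloid cells. It was read at 16.3, 7.27 and 34.3 CPM in KO, against 4.99, 16.8 and 29.6 CPM in WT. The libraries of each group ran over a wide and shared range, 4.72-fold in KO and 5.93-fold in WT. Its log2 fold change was 0.18 (SE 0.78, adjusted p = 0.956 by edgeR). It was -0.56 without KO 3, 0.80 without WT 3, 0.58 without KO 2, -0.29 without WT 1 and 0.27 without the library labelled KO 1, so no direction held. WT 1 had 19 Pirb counts, with an exact 95% Poisson interval of 3.00 to 7.79 CPM that covers counting error only. KO 3 and WT 3, which had the highest sums of macrophage and dendritic cell markers, also had the highest Pirb levels. Fcgr1, an activating Fc receptor gene of macrophages on that list, was read at 1.37, 0.85 and 17.5 CPM in KO, against 1.05, 14.1 and 27.7 CPM in WT. The library labelled KO 1, at 16.3 CPM of Pirb, was close to WT 2 at 16.8 CPM, although its marker sum of 283 CPM was well under the 1351 CPM of WT 2. Per length the order of these libraries was reversed, at 13.3 TPM in the library labelled KO 1 and 10.8 TPM in WT 2. Of the markers in that sum, Itgam and Itgax went the other way and were highest of all libraries in the library labelled KO 1. Itgam was at 20.1 CPM of the library total there, against 3.08 CPM in WT 2. The other markers with counts in either library were lower in the library labelled KO 1 than in WT 2. The part of macrophages and dendritic cells in the Pirb values was not tested. Fcgr2b, which macrophages also transcribe, was highest in KO 2, where the marker sum was lowest. The part of macrophages in the Fcgr2b values was not tested either. Pirb lies on chromosome 7 (3711409 to 3720391, minus strand) among the near-identical activating Pira genes, to which its reads could be assigned. Of these, Pira2 had at most 30 counts and Pira6 at most 12 in any library, and Pira1, Pira7, Pira11 and Pira12 were not analysed here.

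**Figure D2:**
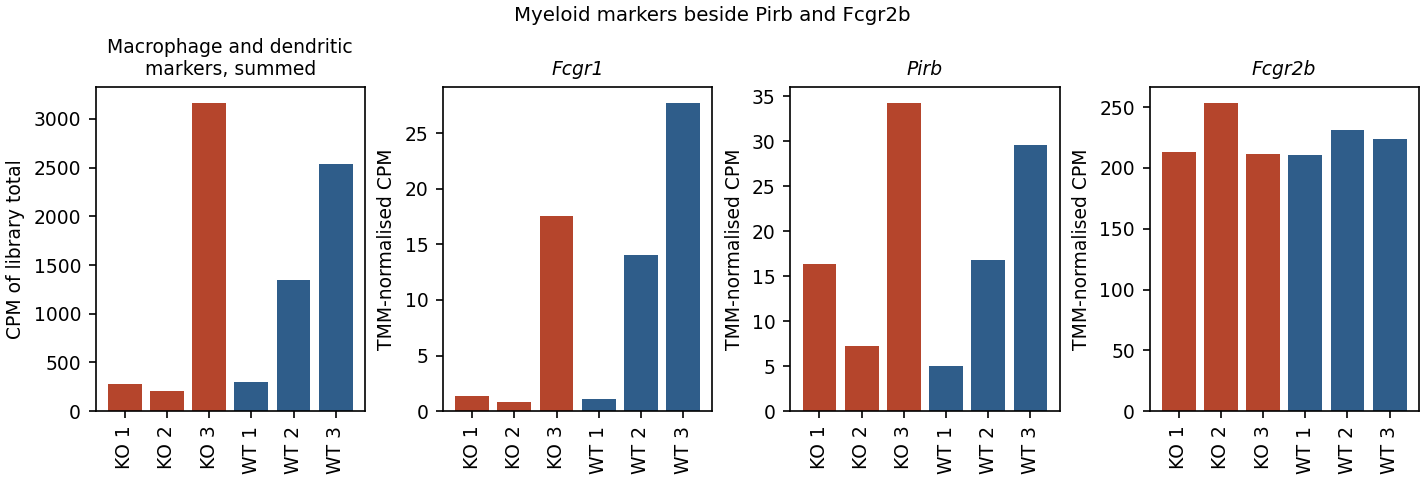
The summed level of 20 macrophage and dendritic cell markers (CPM of the library total), and the levels of Fcgr1, Pirb and Fcgr2b (TMM-normalised CPM), as 1 bar per library with KO in red and WT in blue. The marker sum and Fcgr1 are high in KO 3, WT 2 and WT 3. Pirb is highest in KO 3 and WT 3 and nearly equal in WT 2 and the library labelled KO 1, whereas Fcgr2b stays between 211 and 254 CPM.

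Ptpn6 encodes SHP-1, the phosphatase recruited by CD22, CD72 and PIR-B. It was read at 756, 904 and 773 CPM in KO, against 1101, 992 and 1154 CPM in WT. Every KO library lay below every WT library, the highest KO value being 0.911 times the lowest WT value. Means were 811 ± 81.4 CPM in KO and 1082 ± 82.5 CPM in WT (SD, n = 3 each). The log2 fold change was -0.42 (SE 0.20), a ratio of 0.749 with a 95% interval of 0.557 to 1.01, and it did not pass (by edgeR, adjusted p = 0.407, unadjusted p = 0.055). It had the same sign in all 15 alternatives, from -0.50 to -0.30, and passed in none. Ptpn6 lies on chromosome 6 (124720707 to 124738714, minus strand) and shares 195 exon bases with an antisense gene. Inpp5d, which encodes SHIP-1, the phosphatase recruited by FcγRIIB, was read at 354, 391 and 439 CPM in KO, against 483, 338 and 442 CPM in WT. Its groups overlapped, with a WT library at each end of the range. For Inpp5d the log2 fold change was -0.09 (SE 0.21, adjusted p = 0.904 by edgeR), with an interval from a ratio of 0.685 to one of 1.28. It lies on chromosome 1 (87620312 to 87720507, plus strand).

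**Figure D3:**
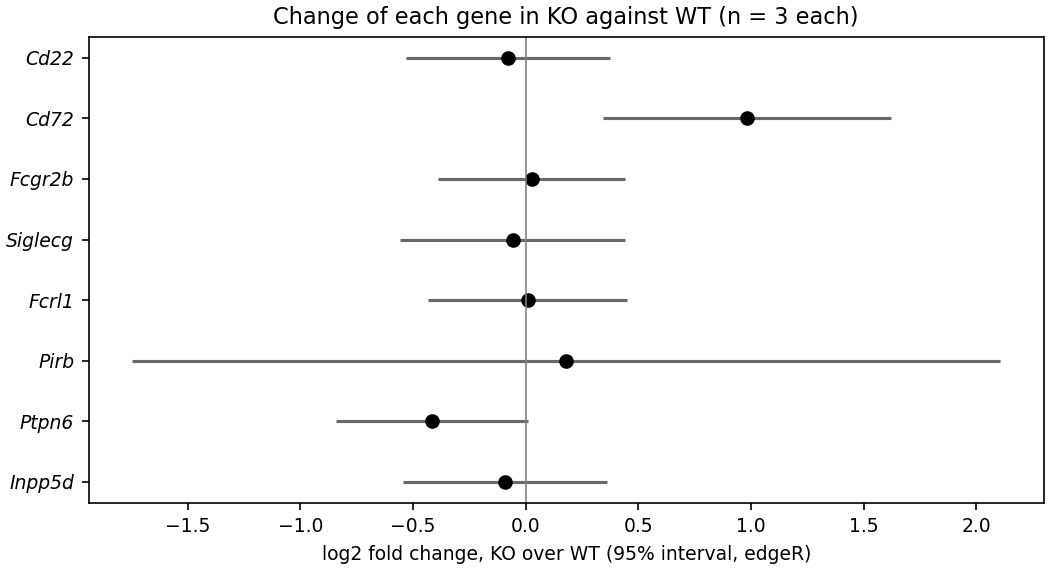
Log2 fold change of each gene, KO over WT, as a point with its 95% interval from the edgeR fit (n = 3 libraries each). The interval of Cd72 lies above 0, that of Ptpn6 reaches just past 0, and the one of Pirb is the widest, although no gene passed after adjustment over 10926 genes.

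Set against Ptpn6 in the same library, which needs no scaling between libraries and was chosen after the values were seen, several receptors had a higher ratio in KO. Cd72 had 40.4, 16.0 and 19.5 counts per 100 Ptpn6 counts in KO, against 8.83, 9.59 and 9.69 in WT. Fcgr2b had 28.2, 28.0 and 27.4 counts per 100 Ptpn6 counts in KO, against 19.2, 23.3 and 19.4 in WT. Fcrl1 and Cd22 likewise had groups that did not overlap, with means of 31.5 ± 2.49 and 111 ± 24.6 in KO and 23.6 ± 2.49 and 86.8 ± 4.49 in WT (SD, n = 3 each). Siglecg, Pirb and Inpp5d overlapped, and Inpp5d averaged 49.0 ± 7.01 in KO and 38.7 ± 4.90 in WT. These ratios share 1 denominator and carry its lower KO level. A gene with no change of its own would thus also have a higher ratio in KO. The share of all genes without overlap on this ratio was not computed, so the receptors cannot be set against it. The smallest two-sided exact permutation p that 3 against 3 libraries allow is 0.1. Among other genes set against Ptpn6, the antigen receptor chain gene Cd79a averaged 96.6 ± 5.73 counts per 100 Ptpn6 counts in KO and 100.4 ± 10.3 in WT. Cd79b, the gene of the partner chain, averaged 209 ± 47.6 in KO and 252 ± 35.3 in WT, and the kinase gene Csk averaged 104 ± 3.33 in KO and 119.9 ± 22.3 in WT, each with overlap. Cd79a and Cd79b were themselves lower in every KO library, Cd79a at 791 to 828 CPM of the library total in KO and 842 to 1221 CPM in WT. Their ratios therefore do not show where an unchanged gene would lie.

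**Figure D4:**
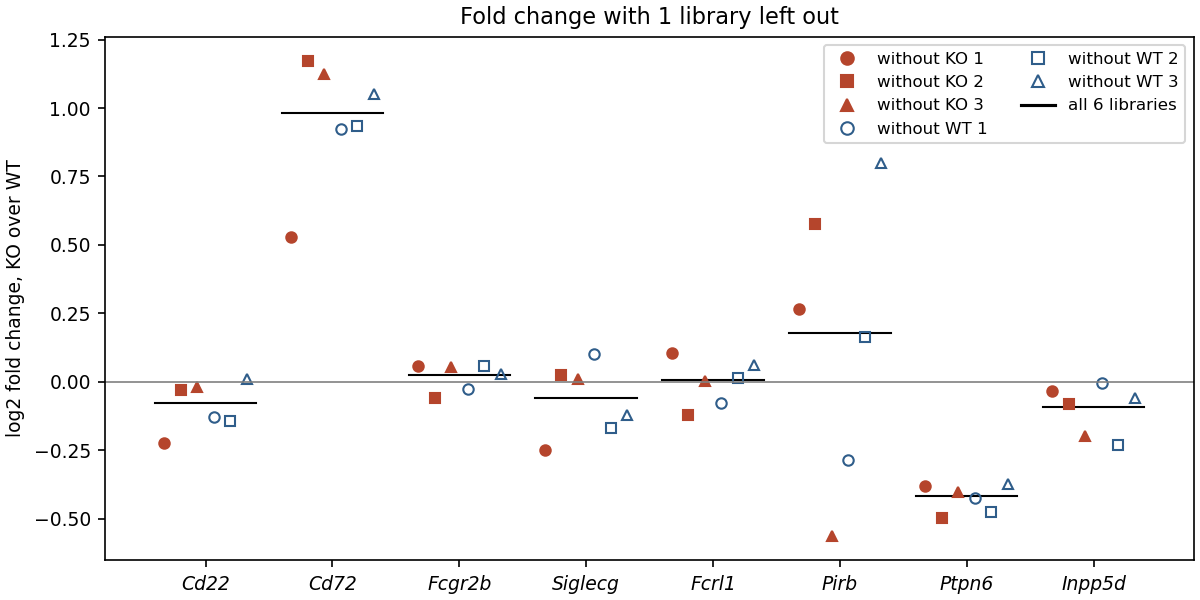
Log2 fold change of each gene, KO over WT, with 1 library left out in turn (symbols, red for a KO library and blue for a WT library left out) and with all 6 libraries (black line). Cd72 stays above 0 and Ptpn6 below 0 in each of the 6 fits, Cd72 is at 0.53 without the library labelled KO 1, and Pirb crosses 0.

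Profiles over the 6 libraries were compared by the root mean square difference of log2 CPM, each gene centred on its own mean, as a description over 6 libraries that share depth and composition. Among the 8, Cd22 and Siglecg paired at 0.20 log2 units, Fcgr2b and Fcrl1 at 0.09 and Ptpn6 and Inpp5d at 0.23, and Cd72 and Pirb were 0.54 and 0.98 from Cd22, the nearest of the 8 to both. The distance from a flat profile was 0.16 for Cd22, 0.23 for Siglecg, 0.09 for Fcgr2b, 0.16 for Fcrl1, 0.23 for Ptpn6, 0.18 for Inpp5d, 0.57 for Cd72 and 0.98 for Pirb. Most members were thus about as far from their nearest member as from no change at all, or farther, and Fcrl1 was the clearest exception. Over all genes with a mean log2 CPM of at least 3, Fyco1 was nearest to Cd72 (0.13), Mta2 to Ptpn6 (0.03), Pwp1 to Fcgr2b (0.03), Dalrd3 to Cd22 (0.05) and App to Pirb (0.28).

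Other inhibitory receptors of lymphocytes and myeloid cells gave 0 of 15 tested genes past the threshold (edgeR), with 2 higher and 0 lower in KO at an unadjusted p under 0.05, and 0 by DESeq2 and limma-voom. Their median log2 fold change was -0.01, with 7 of 15 above 0. Over all genes tested, 7.10% were higher and 5.50% lower in KO at that unadjusted p (edgeR), and 51.34% lay above 0. Fcrl5, an Fc receptor-like gene of marginal zone and B-1 B cells, was read at 60.7, 8.40 and 6.50 CPM in KO, against 5.52, 7.82 and 3.74 CPM in WT. The library labelled KO 1 alone stood above the rest, and the log2 fold change of 2.12 (SE 1.06, adjusted p = 0.484 by edgeR) was 0.37 without it. Ceacam1, an adhesion receptor gene whose product carries inhibitory motifs, was read at 22.8, 8.89 and 7.58 CPM in KO, against 7.09, 4.89 and 3.43 CPM in WT. Its groups did not overlap, and its log2 fold change was 1.34 (SE 0.48, adjusted p = 0.304 by edgeR), or 0.67 without the library labelled KO 1. Cd300a, a receptor gene of myeloid cells for exposed membrane phospholipids, was read at 2.51, 11.0 and 65.8 CPM in KO, against 17.9, 40.1 and 75.1 CPM in WT. It was highest in the libraries with high macrophage markers, and the part of those cells in its values was not tested.

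Other phosphatases and docking proteins gave 0 of 24 tested genes past the threshold (edgeR), with 5 higher and 3 lower at an unadjusted p under 0.05, and 0 by DESeq2 and limma-voom. The median was -0.0034 with 12 of 24 above 0. Over all genes tested, the shares were 7.10% higher and 5.50% lower at that unadjusted p, and 51.34% above 0. Ptpn22, a phosphatase gene whose product acts with the kinase CSK on Src family kinases, averaged 26.6 ± 14.7 CPM in KO and 9.42 ± 4.54 CPM in WT (log2 fold change 1.49, SE 0.52, adjusted p = 0.309 by edgeR, and 0.99 without the library labelled KO 1). Its lowest KO library, at 12.8 CPM, was 1.02 times the highest WT library, at 12.5 CPM. Ptpn12, which encodes the phosphatase PTP-PEST, averaged 24.5 ± 6.31 CPM in KO and 13.4 ± 2.73 CPM in WT (log2 fold change 0.87, SE 0.29, adjusted p = 0.284 by edgeR). Ptprcap, whose product binds the phosphatase CD45, averaged 439 ± 107 CPM in KO and 705 ± 126 CPM in WT (log2 fold change -0.68, SE 0.23, adjusted p = 0.286 by edgeR). The groups of Ptpn12 and of Ptprcap did not overlap.

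Kinases that phosphorylate the motifs or act beside them gave 0 of 9 past the threshold (edgeR), 0 at an unadjusted p under 0.05 and 0 by DESeq2 and limma-voom, with a median of -0.11 and 3 of 9 above 0. The Src family genes Blk, Lck and Fyn had the largest log2 fold changes, -0.36 (SE 0.21), -0.35 (SE 0.21) and 0.31 (SE 0.20). Without WT 3 those of Blk and Lck were -0.20 and -0.22, and without KO 3 that of Fyn was 0.17. Ligands and sialic acid enzymes gave 0 of 12 past the threshold (edgeR), with 1 higher and 1 lower at an unadjusted p under 0.05. By DESeq2 1 passed and by limma-voom 0, and the median was -0.03 with 6 of 12 above 0. For these and the kinases, the shares over all genes tested were 7.10% higher and 5.50% lower at that unadjusted p (edgeR). Above 0 lay 51.34%, and DESeq2 called 0.807% higher and 0.312% lower. Cmah encodes the hydroxylase that makes the sialic acid form preferred by mouse CD22, and it is known to be low in germinal centre B cells, where the GL7 antibody used for the sort recognises the unhydroxylated form. It was read at 83.2, 45.2 and 44.5 CPM in KO, against 17.6, 32.3 and 13.7 CPM in WT. Every KO library lay above every WT library, by at least 1.38 times. The log2 fold change was 1.43 (SE 0.37, adjusted p = 0.213 by edgeR), and it passed with DESeq2 (1.40, adjusted p = 0.0178) and with no filter (1.43, adjusted p = 0.0499 by edgeR). The library labelled KO 1 was 1.84 times the next highest library. Without it the log2 fold change of Cmah was 1.07 (SE 0.32, adjusted p = 0.319 by edgeR). Neu1, a lysosomal sialidase gene, averaged 47.6 ± 8.25 CPM in KO and 67.0 ± 7.25 CPM in WT (log2 fold change -0.49, SE 0.22). B2m, the light chain gene of the MHC class I molecules that PIR-B binds, ranged over 858 to 1491 CPM in KO and 510 to 1172 CPM in WT, with overlap.

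The antigen receptor and activating coreceptor list, the arm that the inhibitory receptors restrain, gave 0 of 18 past the threshold (edgeR), with 2 higher and 2 lower at an unadjusted p under 0.05, and 0 by DESeq2 and limma-voom. Its median was -0.18, with 6 of 18 above 0. Over all genes tested, the shares were 7.10% higher and 5.50% lower at that unadjusted p, and 51.34% above 0. Cd79b, a signalling chain of the antigen receptor, was read at 1209, 2307 and 1631 CPM in KO, against 2342, 2584 and 3252 CPM in WT. Its groups did not overlap, by a narrow gap, and the log2 fold change was -0.67 (SE 0.26, adjusted p = 0.334 by edgeR). Prkcb, a protein kinase C gene of the same pathway, averaged 492 ± 76.8 CPM in KO and 325 ± 40.4 CPM in WT without overlap (log2 fold change 0.60, SE 0.20, adjusted p = 0.286 by edgeR). Cd38, which encodes an ectoenzyme that is low on mouse germinal centre B cells, was read at 126, 35.1 and 67.6 CPM in KO, against 17.6, 31.1 and 39.3 CPM in WT, and its log2 fold change of 1.38 was 0.80 without the library labelled KO 1. Of the 15 genes named from these lists 9 had a log2 fold change above 0, and in 6 of the 9 the highest of the 6 libraries was the one labelled KO 1. These genes were named for the size of their change, which a single high library can raise. The share over all genes was not computed, so the count describes these genes only.

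**Figure D5:**
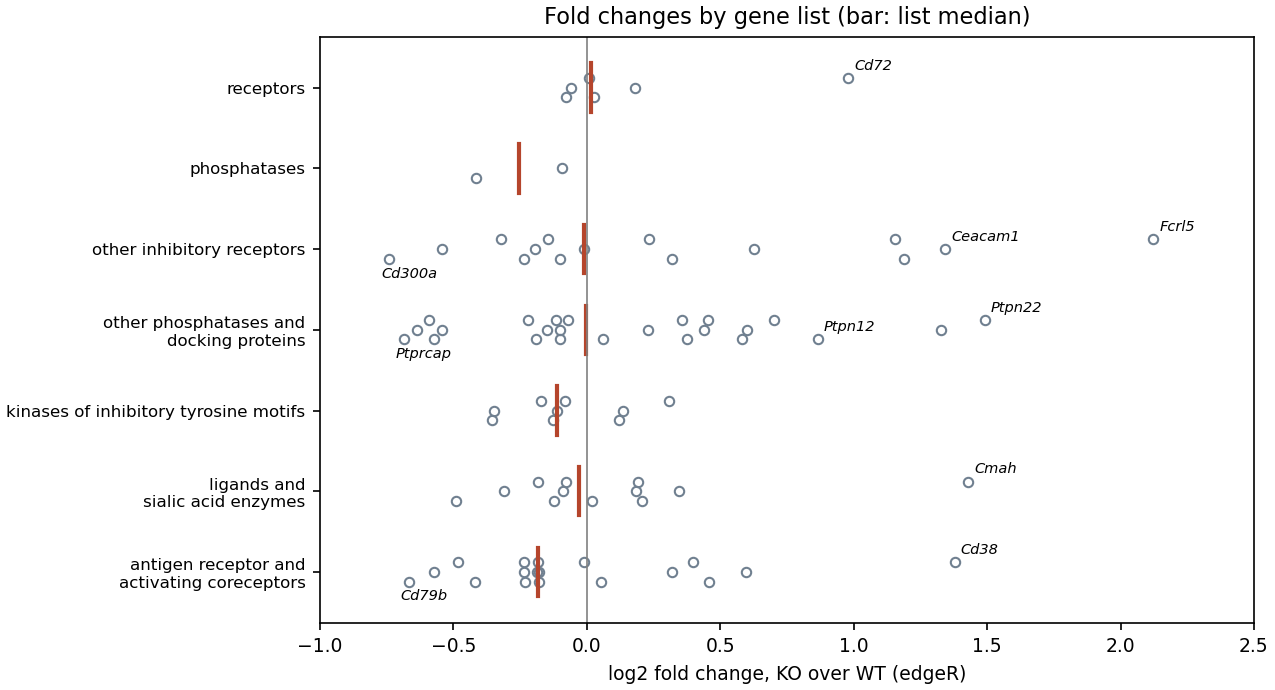
Log2 fold change (KO over WT) of every tested gene of the receptor and phosphatase members and of 5 related lists, 1 point per gene, with a red bar at each list's median. The medians lie between -0.25 and 0.02, and Cd72 is set apart from the other 5 receptor genes at 0.98.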

How the data were processed

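Raw counts of reads per gene, with a column for each mouse, were deposited by the authors. The submitters' processing notes name build mm10, CASAVA, featureCounts 1.5.2 and STAR 2.5.2, while the annotation, the strand setting and the use of multi-mapped reads are not stated there. Differences were tested on these counts with edgeR 4.0.16 (R 4.3.3, filterByExpr, TMM, robust glmQLFit, glmQLFTest, two-sided, no covariates), with Benjamini-Hochberg adjustment over the 10926 genes left. The standard error is the log2 fold change over the square root of F, and intervals use the degrees of freedom of that test. DESeq2 1.42.0 and limma-voom (limma 3.58.1) were alternatives, beside other scalings and filters, thinning to the smallest library, the replicate block and each library left out. The tests were first run on simulated data. A single count was worth 0.0698 to 0.0811 CPM in KO and 0.181 to 0.295 CPM in WT, and intervals from counts cover counting error only.

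Exon lengths, positions and coding sequences came from GENCODE vM21 (mm10), which matched 97.96% of genes by symbol. The membrane segment was the most hydrophobic window of 19 codons. The members and lists were chosen with earlier results of these data known. From each related list, genes that passed and, where under 3 did, the 3 with the largest absolute log2 fold change at a mean log2 CPM of at least 3 were named, and for some genes the nearest profile. Pairs of libraries of a group differed by 14.4 to 50.9 chi-square units per degree of freedom, so none was a repeat.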

Additional observations from a re-analysis of the deposited data

How the results depend on the processing

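None of the 8 genes passed under any of the 15 alternatives. Cd72 and Ptpn6 had the same direction in all 15. The other 6 genes, all near 0 or widely spread, did not. With library size alone, which raised the median of all genes to 0.14 on the log2 scale against 0.01 with TMM, the log2 fold change was 0.0429 for Cd22, 0.0562 for Siglecg and 0.0198 for Inpp5d. With DESeq2 size factors and with DESeq2 it was -0.0122 and -0.0121 for Fcgr2b and -0.0313 and -0.0311 for Fcrl1, and for Fcrl1 -0.0021 with limma-voom. With 1 library left out it ran from -0.22 to 0.0088 for Cd22, from -0.0594 to 0.0596 for Fcgr2b, from -0.25 to 0.10 for Siglecg, from -0.12 to 0.11 for Fcrl1 and from -0.56 to 0.80 for Pirb. The cause was not tested. Over all genes 9 passed, and 18 did with library size alone, 93 with no filter, 122 by DESeq2, 2 by limma-voom and 1 to 24 with 1 library left out (1 without WT 2 or WT 3, 3 without KO 2, 18 without KO 3 and 24 without the library labelled KO 1). Of the ligands and sialic acid enzymes, 1 passed by DESeq2 and 1 with no filter, Cmah in each. Kdm1a passed without the library labelled KO 1 (-1.93, edgeR adjusted p = 0.0169).

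The replicate block gave 21 genes, a log2 fold change of 0.89 for Cd72 (edgeR adjusted p = 0.255) and -0.0015 for Fcrl1. The labels do not say that equal numbers mark a shared litter. The correlations of deviations of equal-numbered libraries were 0.341, -0.05 and 0.443, and those of unequal-numbered libraries ran from -0.4485 to 0.196. Whether equal-numbered samples are paired is therefore not known. Depth limits Pirb most, with 19 counts in WT 1.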

Other observations

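Clu, which is listed here as a marker of follicular dendritic cells, a stromal cell type that carries FcγRIIB, was read at 3.16, 6.21 and 4.57 CPM of the library total in KO and at 127, 1.81 and 2.36 CPM in WT, so WT 1 stood alone. Fcgr2b was at 211 CPM on TMM-scaled library sizes in WT 1, beside 231 and 224 CPM in the other WT libraries. Cxcl13, another marker of these cells, had at most 6 counts in any library. Clu was singled out after its values were seen.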
